A study of Harpegnathos saltator with 47 samples.

Results

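The brains of 12 gamergates were compared with those of 11 workers from transition nests of the ponerine ant Harpegnathos saltator. They are 23 of the 33 ants of the series, and were chosen by their caste and colony labels. The remaining 10 ants, workers of stable colonies, were left out of the comparison. In this species a worker is not fixed in its role. When the reproductive of a colony is lost, workers duel with their antennae, and some of the winners become gamergates, which are workers that mate, activate their ovaries and lay eggs, while the other workers go on to forage and hunt. The brain is of interest because the behaviour of both castes differs while the animals can be nestmates with the same kind of genome.

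To induce the transition, 30 newly eclosed females were moved with 3 males into a new nest, their duels were watched, and the ants were scored for hunting and sacrificed at day 120. Both castes went through this same procedure and share that age, and no strain, genotype or drug is labelled for either. The optic lobes were removed, and polyA RNA was sequenced with the strand kept. Which of these ants were nestmates is not labelled, and the p-values below measure the spread from ant to ant, which may be partly technical. In a whole piece of brain, more cells of a type and more RNA per cell cannot be told apart.

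The 23 ants were sequenced in 32 runs, 9 of the ants in 2 runs each, and the deposited table holds 1 value per ant and row in RPKM, a read count set against the length of the row and the depth of the library. Sequencing batches were told apart by the date that opens each library name, with both dates of the ants run again taken as batch C. Batch A held 2 ants of each caste, batch B held 5 of each, and batch C held 5 gamergates and 4 workers. The whole reads behind the RPKM values could be recovered. Gamergate libraries held 7933626 ± 2245545 reads in genes (SD, n = 12) and worker libraries 6270846 ± 1713094 (SD, n = 11), with ranges of 4685633 to 11159675 and 3904943 to 9716236. Gamergate libraries thus held more reads in genes (two-sided exact permutation test within batches, p = 0.0112). Adjusted over the 2 measures per ant tested in this way, that p was 0.0224. Reads outside gene rows, such as those in ribosomal RNA rows, were not counted. The library names begin with b in 11 of the 12 gamergates and in 3 of the 11 workers, and what this prefix stands for is not given.

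One library stood apart on measures that do not compare the castes. Transition worker 10, of batch C, had a median correlation of 0.853 with the other ants on the log2(RPKM + 1) scale, and the other 22 ants had medians of 0.909 to 0.951. It held 4952600 reads in genes, within the range of the others of 3904943 to 11159675. In it 703 of the 11234 tested rows were at 0, against 170 to 690 in the others. Its share of reads from ribosomal RNA was 7.82%, which was exceeded only by that of transition worker 9, at 20.01%. Against the mean of the other 3 workers of its batch, 957 rows were higher in it and 2630 lower by more than 1 on the log2 scale. Results that rest on it are given below with and without it. That choice was made after the data had been seen, including the fits with each ant left out.

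The files give row IDs and no gene names, and none of the IDs matched the RefSeq gene table for this ant. The rows are therefore named by ID, with no role and no position. Genes that often differ between insect castes, such as those for the yolk precursor vitellogenin, for neuropeptides or for the enzymes and receptors of juvenile hormone, could not be found among the rows. For the same reason the labelled tissue could not be checked against neuronal or glial markers.

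The question put to these ants is where brain expression departs between egg layers and the workers beside them. The difference was shallow in most rows, with a few rows far out. Rows averaging 0.5 RPKM or more were tested, and of these 11234 rows 3 passed 0.05 after Benjamini-Hochberg adjustment in limma, which is 0.0267% of the rows tested. Hsal_11723 rose in gamergates, and Hsal_05445 and Hsal_09095.2 fell. At an unadjusted p under 0.05 there were 920 rows, or 8.19%, of which 465 were higher and 455 lower in gamergates. If no row differed, 5% would be there on average, and without the batch term 591 rows were, or 5.26%. At an unadjusted p under 0.01 there were 131 higher rows, 1.17% of those tested, and 128 lower rows, 1.14%. At an unadjusted p under 0.001 there were 18 higher and 26 lower. Without transition worker 10, 24 rows passed the adjusted threshold, or 0.214%, of which 6 were higher and 18 lower. The rows at an unadjusted p under 0.01 then numbered 180 higher, or 1.60%, and 268 lower, or 2.39%. The split between directions also moved with the scaling, since 62.7% of the rows at that threshold were higher after quantile normalization, against 50.6% as deposited and 40.2% without transition worker 10.

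**Figure D1:**
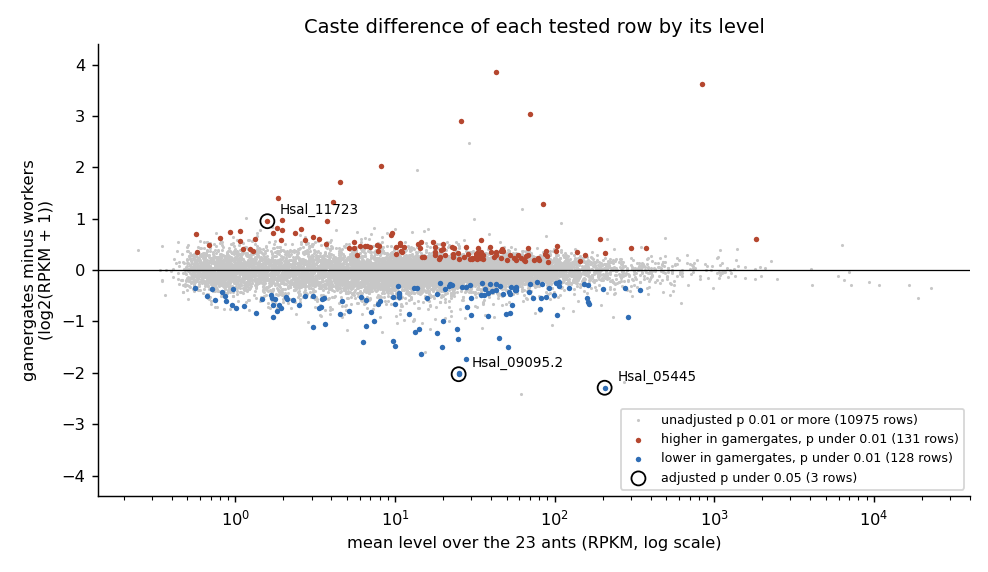
Difference between castes of each tested row on the log2(RPKM + 1) scale (vertical axis) against its mean over the 23 ants in RPKM (horizontal log axis). Grey points are rows with an unadjusted p of 0.01 or more, red and blue points the 131 higher and 128 lower rows under it, and circles the 3 rows with an adjusted p under 0.05. Most rows lie close to 0 at every level.

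Most rows differed little. Over all tested rows the difference between gamergates and workers in log2(RPKM + 1), a scale on which low rows appear to change less than they do, had a median of -0.015, with 46.8% of rows higher in gamergates. This slight tilt moved with 1 library and with the scaling, to a median of -0.049 and 39% higher without transition worker 10, and to 0.012 and 52.4% higher after quantile normalization. Its middle 50% ran from -0.15 to 0.11, and its 1st and 99th percentiles were -0.69 and 0.51. The lower side was thus the longer one. By more than 1, 31 rows were lower and 13 higher, and by more than 0.5, 299 were lower and 125 higher, whatever their p. The median size of the difference, without regard to its sign, was 0.128. After the batch had been taken out, caste accounted for a median of 3.58% of the variance of a row, for 23.8% at the 95th percentile, and for at least 50% in 28 rows, 14 of them higher in gamergates. Such a share lies above 0 even where the castes do not differ, and its level in that case was not worked out.

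No row separated the castes completely. In 26 of the 11234 tested rows at least 8 of the 12 gamergates lay above every worker, and in 16 at least 8 lay below every worker. Among so many rows some would do so without any caste difference, and how many was not worked out. With at least 10 gamergates the numbers were 3 and 5, and with at least 11 they were 0 and 0. In every row at least 2 gamergates thus failed to lie beyond the workers on the side of the others.

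The rows under an unadjusted p of 0.01 can be described by direction, with all 23 ants first. Higher rows had a median difference of 0.40, and 9 of 131, or 6.87%, were past 1. Lower rows had a median of -0.54, and 19 of 128, or 14.8%, were past 1. Higher rows also varied less between ants, with a median coefficient of variation of 20.5% among gamergates and 25.5% among workers, while lower rows had 37.8% and 36.5%, and all tested rows had 28.0% and 34.5%. The length of a row, recovered with the reads, had a median of 2.21 kb in the higher and 1.39 kb in the lower rows, and 1.52 kb in all. Without transition worker 10 the gap between the directions was smaller: the median differences were 0.32 and -0.39, 8 of 180 higher rows (4.44%) and 19 of 268 lower rows (7.09%) were past 1, and the median lengths were 2.21 and 1.89 kb. With all 23 ants the median levels were alike, at 23.1 RPKM in the higher and 20.2 RPKM in the lower rows, against 15.6 RPKM in all. These are descriptions of rows chosen by their p in the same fit, and they were not tested.

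Highly expressed rows entered the list somewhat more often. In 5 equal groups of rows by level, the share under an unadjusted p of 0.01 was 2.18% in the lowest group, 1.91%, 1.65% and 2.49% in the next ones, and 3.29% in the highest, where the mean exceeded 44.4 RPKM. The median size of the difference went the other way, from 0.151 in the lowest to 0.117 in the highest group, and so did the median standard error, from 0.200 to 0.120. Precision at high levels thus moved with the share of rows passing, and its part was not tested. By kind of row, all 3 called rows were genes, as were 11145 of the 11234 rows tested. Of the 32 ribosomal RNA and 14 small nuclear RNA rows none was under an unadjusted p of 0.05 in limma, and of the 34 transfer RNA and 9 microRNA rows 2 and 1 were, against 8.23% of genes. With so few rows of these kinds, no difference from genes can be read.

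Among the rows higher in gamergates, Hsal_11723 was the one that passed the adjusted threshold. It is a row of 0.465 kb at a low level. In gamergates it ran from 1.25 RPKM through a median of 2.07 to 4.30, and in workers from 0 through 0.443 to 2.20. All gamergates had reads of it, and 8 of the 11 workers lay below every gamergate, while 5 of the 12 gamergates lay above every worker. The difference was 0.95 (SE 0.172, adjusted p = 0.0487 in limma), higher in gamergates in each of batches A, B and C by 0.93, 0.61 and 1.35. At such levels the row rests on few reads, with a median of 4 per ant. Leaving out 1 ant at a time ended this call in 16 of 23 cases. It held in 6 of 16 other settings, and was lost with pseudocounts of 0.5 and 0.1 (adjusted p = 0.0535 and 0.0851 in limma), without a batch term (0.0858), without a filter on low values (0.0716), and with voom (0.118).

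The next rows on that side did not pass with all ants. Hsal_03968 had a lowest, median and highest value of 26.9, 39.2 and 62.5 RPKM in gamergates and 14.5, 25.4 and 39.2 RPKM in workers, a difference of 0.59 (adjusted p = 0.0531 in limma). Hsal_03329 had 1.61, 3.10 and 4.95 RPKM in gamergates and 0.795, 1.5 and 2.08 RPKM in workers, a difference of 0.72 (adjusted p = 0.0531). In the latter, 10 of 12 gamergates lay above every worker, and gamergates 9 and 11 lay among the workers. Both rows passed without transition worker 10, with adjusted p of 0.0301 and 0.0126 in limma.

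Hsal_04952 showed a wider gap and a wider spread. It ran from 28.7 through 125 to 212 RPKM in gamergates and from 26.8 through 45.5 to 80.4 RPKM in workers. Gamergates 7, 9 and 11, at 54.1, 43.2 and 28.7 RPKM, lay within the worker range, and the other 9 lay above it. The difference was 1.28 (SE 0.275, adjusted p = 0.109 in limma).

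Ranks 5 to 7 were modest shifts of rows at low levels. Hsal_01267 ran over 1.64, 3.43 and 5.21 RPKM in gamergates and 1.28, 1.90 and 2.86 RPKM in workers. Hsal_01339 ran over 2.68, 4.08 and 6.05 RPKM in gamergates and 1.10, 2.48 and 3.40 RPKM in workers. Hsal_09655 ran over 6.75, 9.44 and 11.8 RPKM in gamergates and 4.50, 6.61 and 7.78 RPKM in workers. In each of them 8 or 9 of the gamergates lay above every worker, and the differences were 0.58, 0.61 and 0.48, with the same adjusted p of 0.111 in limma.

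Hsal_10714, at rank 8, had the largest difference of the ranked rows and the most uneven one. In gamergates it was listed at 0 in gamergate 9 and at 525 RPKM in gamergate 10, with a median of 35.5, and in workers it ran from 0 through 0.308 to 0.799 RPKM. Gamergates 1, 5 and 9 lay within the worker range. The difference was 3.85 (95% confidence interval 2.04 to 5.66, adjusted p = 0.114 in limma). Hsal_07870, at rank 15, had the same shape at a lower level, from 0.034 through 2.11 to 12.2 RPKM in gamergates and from 0 through 0.168 to 0.339 RPKM in workers. In both rows 9 of the 12 gamergates lay above every worker.

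The other rows ranked 9 to 15 were shifts of 0.25 to 0.54. They were Hsal_05866, Hsal_12129, Hsal_11357, Hsal_11622, Hsal_05914 and Hsal_02258. Hsal_02258 shows how small a shift could rank here, at 29.5 ± 2.25 RPKM in gamergates (SD, n = 12) and 24.6 ± 2.18 RPKM in workers (SD, n = 11), with 10 of 12 gamergates above every worker and a shift of 0.25 (SE 0.0632, limma adjusted p = 0.178). Hsal_11357 was at 57.2 ± 6.66 RPKM (SD, n = 12) and 47.3 ± 7.37 RPKM (SD, n = 11), where only 3 gamergates lay above every worker.

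**Figure D2:**
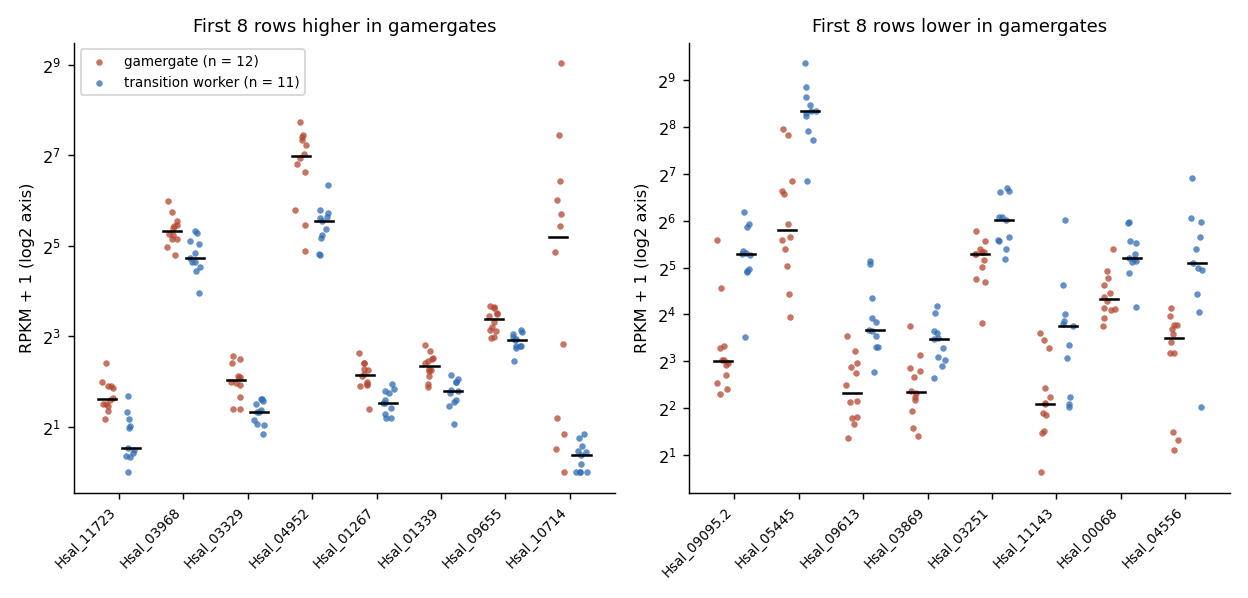
RPKM + 1 on a log2 axis in each ant for the first 8 rows by unadjusted p that were higher (left) and lower (right) in gamergates, with red points for the 12 gamergates, blue points for the 11 transition workers and black bars for medians. The castes overlap in every row, and Hsal_10714 spans from 0 to 525 RPKM among gamergates.

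Among the rows lower in gamergates, Hsal_09095.2 and Hsal_05445 passed. Hsal_09095.2 ran from 3.93 through 6.98 to 47.0 RPKM in gamergates and from 10.5 through 38.3 to 72.1 RPKM in workers. Its gamergates fell into 10 ants at 9.06 RPKM or less and gamergates 9 and 11 at 22.5 and 47.0, and worker 6 was the lowest of its caste. The difference was -2.03 (SE 0.332, adjusted p = 0.0345 in limma). It was -3.33, -2.25 and -1.19 within batches A, B and C.

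Hsal_05445 was also the most abundant of the ranked rows. It ran from 14.4 through 54.7 to 248 RPKM in gamergates and from 114 through 323 to 656 RPKM in workers. The 656 RPKM was that of transition worker 10, and the row also passed without that ant (adjusted p = 0.0284 in limma). The 9 gamergates below every worker did not include gamergates 5, 9 and 11, at 114, 225 and 248 RPKM. The difference was -2.29 (SE 0.392, adjusted p = 0.0345 in limma), and -3.92, -1.88 and -2.02 within batches A, B and C. Each of these calls was lost when any of 14 of the 23 ants was left out.

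Ranks 3 to 8 did not pass with all ants. Hsal_09613 ran over 1.56, 4.03 and 10.7 RPKM in gamergates and 5.86, 11.7 and 34.4 RPKM in workers, a difference of -1.48 (adjusted p = 0.0685 in limma). Hsal_03869 ran over 1.66, 4.10 and 12.5 RPKM in gamergates and 5.28, 10.2 and 17.2 RPKM in workers, a difference of -0.99 (adjusted p = 0.101). Both passed without transition worker 10, at adjusted p of 0.0408 and 0.0423 in limma. Hsal_03251 ran over 13.1, 38.1 and 54.1 RPKM in gamergates and 35.3, 64.0 and 103 RPKM in workers, a difference of -0.85 (adjusted p = 0.109). In these 3 rows 8, 7 and 5 of the gamergates lay below every worker.

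Hsal_11143 ran over 0.555, 3.28 and 11.2 RPKM in gamergates and 3.04, 12.5 and 63.9 RPKM in workers. Its highest worker was transition worker 10, as in Hsal_03251 above and Hsal_00068 below. Hsal_00068 ran over 12.5, 19.1 and 40.9 RPKM in gamergates and 17.0, 35.9 and 61.7 RPKM in workers. Hsal_04556, a row of 0.285 kb, ran over 1.15, 10.3 and 16.6 RPKM in gamergates and 3.10, 33.3 and 119 RPKM in workers. Worker 6 was the lowest of its caste in Hsal_00068 and Hsal_04556, and 5, 5 and 3 gamergates lay below every worker in the 3 rows. Their differences were -1.39, -0.88 and -2.01, with the same adjusted p of 0.109 in limma.

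Lower rows at ranks 9 to 15 were Hsal_03795, Hsal_06997, Hsal_07329, Hsal_08141, Hsal_15744, Hsal_06656 and Hsal_07693, with adjusted p of at least 0.111 in limma. Hsal_07329 had 10 of 12 gamergates below every worker, at 24.5 ± 7.27 RPKM in gamergates (SD, n = 12) and 35.9 ± 7.99 RPKM in workers (SD, n = 11). Hsal_06656 spread widely, at 32.3 ± 38.8 RPKM in gamergates (SD, n = 12) and 71.5 ± 42.2 RPKM in workers (SD, n = 11), with gamergate 11 at 147 RPKM.

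Taken by direction, the 15 rows higher in gamergates had differences of 0.25 to 3.85 with a median of 0.58, and the 15 lower rows had sizes of 0.44 to 2.29 with a median of 1.32. The median size over all tested rows was 0.128. Lower rows were at 7.42 to 206 RPKM and higher rows at 1.59 to 84.6 RPKM. All 30 kept their sign within each of the 3 batches, which also chose them. The median size of the lower rows in batches A, B and C was 1.55, 1.20 and 0.71, and that of the higher rows was 0.67, 0.52 and 0.52. In the authors' deposited table, made from the same ants, 12 of the 15 higher and 9 of the 15 lower rows had an adjusted p under 0.05. The calls were not the same ones. Of the rows called here, Hsal_09095.2 and Hsal_05445 were under 0.05 there, and Hsal_11723 just missed it. Hsal_10714 and Hsal_07870, not called here, had the smallest adjusted p of the named rows there. Of the 68 rows called in the authors' deposited table, 67 were tested here, and their median rank by p here was 70, with the last at rank 2439.

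A count per ant shows how evenly the ranked rows divided the ants. For each of the 30 rows an ant was placed on the gamergate side when it lay nearer, on the log2 scale, to the mean of the gamergates of its batch than to that of the workers. Gamergates 2, 8, 10 and 12 were on the gamergate side in all 30 rows. Gamergate 9 was there in 15 and gamergate 11 in 12, and the other gamergates in 23 to 28. Among workers, worker 6 was there in 11 rows and worker 11 in 8, and the other workers in 1 to 5. Transition worker 10, with 3, was not among the exceptions. The rows were chosen by the same difference, so this is a description of the ants and no test of the castes.

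**Figure D3:**
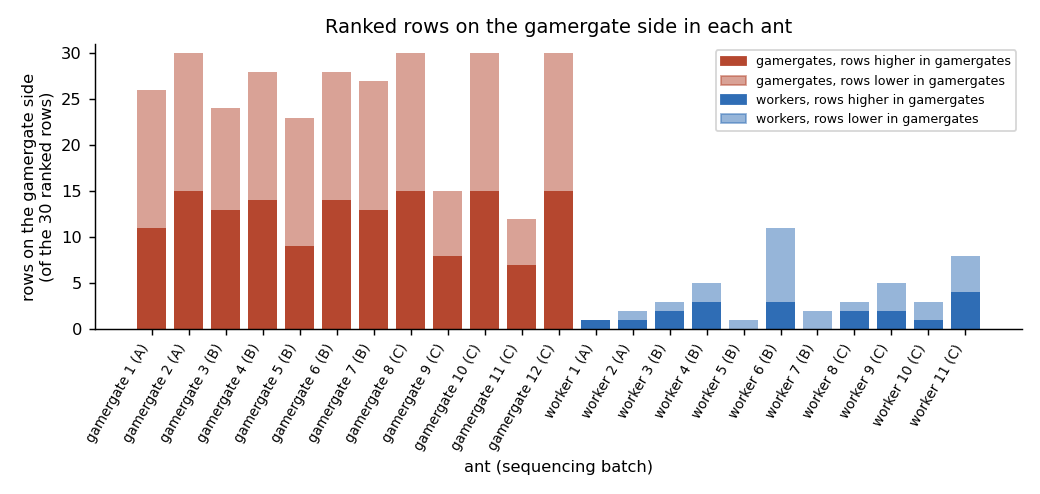
Number of the 30 ranked rows, on the vertical axis, in which each ant lay on the gamergate side. Full colour marks the 15 rows higher in gamergates, pale colour the 15 lower ones, and letters give the sequencing batch. Gamergates 9 and 11 reached 15 and 12 rows, and worker 6 reached 11.

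The 5 most abundant rows in each direction under an unadjusted p of 0.01 ranged from shifts of 0.32 to the -2.29 of Hsal_05445. Hsal_13511 was at 2166 ± 715 RPKM in gamergates (SD, n = 12) and 1437 ± 517 RPKM in workers (SD, n = 11), a difference of 0.60 (adjusted p = 0.272 in limma). Hsal_07315, Hsal_03770 and Hsal_07806 were higher in gamergates by 0.44, 0.44 and 0.32. On the other side, Hsal_07157, Hsal_08682, Hsal_12751 and Hsal_08185 were lower by 0.38, 0.91, 0.35 and 0.36, and Hsal_05445, described above, completes the 5. Apart from Hsal_05445, none passed the adjusted threshold.

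Hsal_09096.2 had the largest difference of these rows. Its lowest, median and highest values were 7.46, 796 and 4721 RPKM in gamergates and 0.949, 43.4 and 1873 RPKM in workers. The castes overlapped widely, with workers 3 and 4 at 706 and 1873 RPKM and gamergates 1 and 11 at 7.46 and 35.8 RPKM. The difference was 3.63 (95% confidence interval 1.36 to 5.90, adjusted p = 0.325 in limma). Its ID follows that of Hsal_09095.2, and these 2 are the only IDs in the table with a suffix after a point. One lay higher and the other lower in gamergates. Whether they overlap in the genome could not be looked up here.

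Batches B and C share no ants, so rows ranked in the one can be looked up in the other. Of the 200 rows ranked first by p in batch B, 124 had the same sign in batch C, or 62.0% (95% exact binomial interval 54.9 to 68.8%, which treats rows as independent). Their median size was 0.62 in batch B, and in batch C their median difference in the same direction was 0.10. Over all tested rows 49.1% had the same sign. In the other direction, of the 200 rows ranked first in batch C 54.0% had the same sign in batch B. The interval of the same kind was 46.8 to 61.1%, which holds the 48.9% of all rows.

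Transition worker 10 bears on these shares. Without it, 74.5% of the 200 rows ranked in batch B had the same sign in batch C, with a median difference in the same direction of 0.17, and 61.5% of those ranked in batch C had it in batch B. Over all rows the share was then 51.7% and 51.6%. By direction, without that worker, 71.7% of the higher and 76.9% of the lower rows ranked in batch B kept their sign, against 69.6% and 55.6% with it. The same shares over all rows higher or lower in batch B were 50.5% and 52.6% without that worker and 64.4% and 38.6% with it. With all ants the ranked lower rows thus lay farther above the share of all rows of their direction than the ranked higher rows did. Batch C as a whole tilted toward gamergates with that worker, with 62.5% of rows higher and 270 rows at an unadjusted p under 0.05. Without it 48.6% were higher and 735 rows were at that threshold, while batch B had 40.4% higher and 606 rows.

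**Figure D4:**
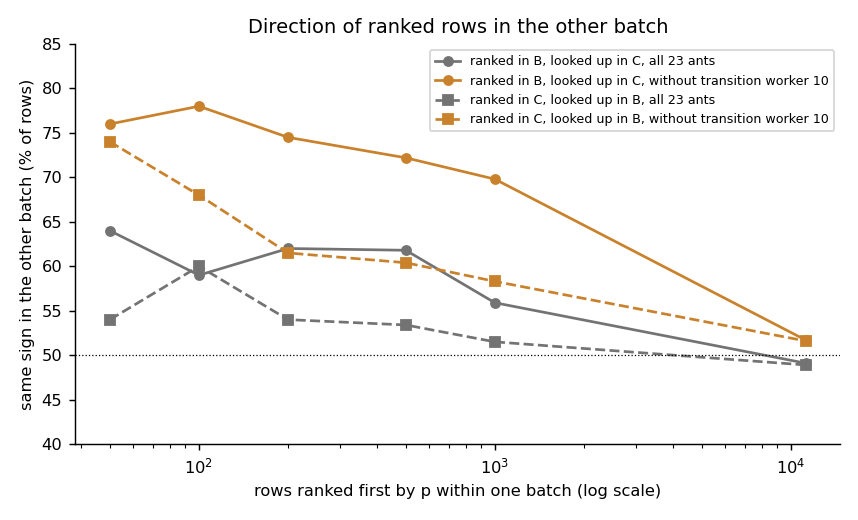
Percentage of rows with the same sign in the other batch (vertical axis, starting at 40%) by the number of rows ranked first by p within a batch (horizontal log axis). Circles are rows ranked in batch B and squares rows ranked in batch C, in grey with all 23 ants and in orange without transition worker 10. For 200 rows ranked in batch B the share is 62.0% with and 74.5% without that worker, and over all rows each line ends near 50%.

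The rows that passed without transition worker 10 were mostly lower in gamergates, and had mean levels of 1.59 to 206 RPKM. Of the 24 rows, 9 were among the 30 ranked above, and 3 were those called with all ants. Hsal_13136 came first, with a median of 123 RPKM in gamergates and 203 RPKM in the 10 other workers, which is -0.75 in log2(RPKM + 1) (SE 0.108, limma adjusted p = 0.00737). It was at 77.2 RPKM in transition worker 10, below both medians. With all ants its difference was -0.62 (adjusted p = 0.172). Hsal_05364 had medians of 63.5 and 107 RPKM, a difference of -0.65 (adjusted p = 0.0126), and was at 45.6 RPKM in transition worker 10. The last of the 24, Hsal_02887, stood at rank 3267 with all ants. These rows were named after their values had been seen.

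**Figure D5:**
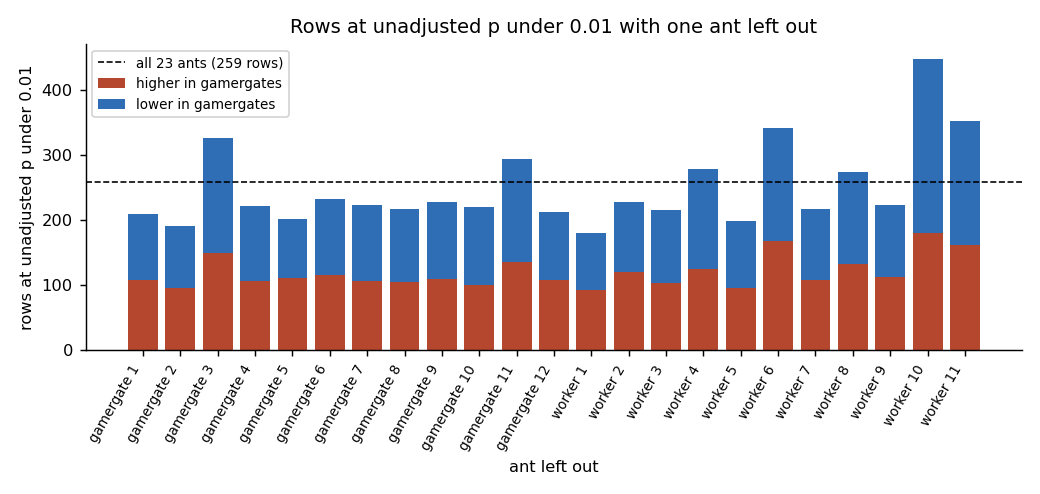
Rows at an unadjusted p under 0.01 (vertical axis) when the ant on the horizontal axis is left out, in red for rows higher and blue for rows lower in gamergates. The dashed line marks the 259 rows with all ants. The count runs from 180 without worker 1 to 448 without worker 10.

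Caste was not the main axis of variation between ants. In a principal component analysis of the log2 values centred within batches, the first component held 25.9% and the second 19.7% of the variance. A separation of the castes on them did not pass an exact permutation test within batches, adjusted over 5 components (adjusted p = 0.262 and 0.653). On the second, transition worker 10 scored 87.3 and all other ants -30.5 to 20.3. The castes differed on the fourth component, which held 6.32% of the variance, with mean scores of 7.07 in gamergates and -7.71 in workers (exact permutation test, adjusted p = 0.0205). With an ant left out the components were computed anew, so the separation need not then lie on the fourth. The adjusted p over the first 5 components then rose above 0.05 without gamergate 3, 7 or 10 or worker 6 or 11. These values were 0.0806, 0.0721, 0.286, 0.0620 and 0.0592 (exact permutation test).

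Workers lay farther from their caste mates than gamergates did on this measure, and this too rested on one library. An ant's typical distance from the other ants of its caste and batch, the median over rows of the absolute log2 difference, was 0.229 ± 0.0625 in gamergates (SD, n = 12) and 0.315 ± 0.136 in workers (SD, n = 11), and a two-sided exact permutation test within batches gave p = 0.0361, which is also its value adjusted over both measures. The values were held fixed while castes were permuted, although each depends on the ant's mates. The 2 ants of a caste in batch A have the same value by construction. This p is therefore only a rough guide. Transition worker 10 was the farthest at 0.673, and the other workers lay at 0.187 to 0.379. The other workers of batch C were measured against means that included transition worker 10. Without it the difference shrank from -0.0865 to -0.0213 (exact permutation test, p = 0.398). The p also rose above 0.05 without any one of gamergates 1, 2, 4, 5, 8, 9, 10 and 11. The number of reads in genes differed between the castes as given above, and its part in the spread was not tested.

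The prefix of the library names moved with caste. With the prefix as a further term no row was called in limma, 788 rows had an unadjusted p under 0.05, and the median size of the difference was 0.179. The differences of the called rows were then 0.90 for Hsal_11723, -2.17 for Hsal_09095.2 and -2.52 for Hsal_05445, with adjusted p of 0.507, 0.243 and 0.243 in limma. With the prefix b on nearly all gamergates and on few workers, caste and prefix cannot be told apart in most of these ants.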

How the data were processed

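RNA of brains without optic lobes was sequenced with strand information kept, per the labels' protocols. The authors used STAR 2.5.0b and DESeq2, per the submitters' processing notes, which give no roles. No source used here names the genome build, the annotation or the counting settings. The authors deposited RPKM values with 1 column per ant, and whether the value of an ant with 2 runs pools both is not given. Further per-sample columns numbered 0. The log2 fold changes that the authors deposited are of workers relative to gamergates, and their sign was turned here. Per the file headers that table also has p-values and a signal column, baseMean.

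From RPKM steps, whole reads were recovered for 15320 rows, and 100% of 404997 values came out whole within 0.01 reads. These reads gave depths and row lengths. With limma 3.58.1 in R 4.3.3, log2(RPKM + 1) of the 23 ants was fitted with caste and batch as terms and a variance trend, two-sided, for rows averaging 0.5 RPKM or more across the 33 ants, adjusted by Benjamini-Hochberg and called under 0.05. The fit was tested on simulated data. Values per ant were compared by exact permutation of caste within batches, over 190512 arrangements, and their p is adjusted only where said. Alternatives were pseudocounts, filters, model terms, weights, scalings, single batches, limma's voom on the recovered reads and leaving out each ant.

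Named rows are the first 15 by unadjusted p in each direction, with values by ant for the called rows and the first 8. Also named are the 5 most abundant rows in each direction under an unadjusted p of 0.01, and rows seen in at least 6 ants of one caste and none of the other. The rows, rules and tests were chosen with earlier results of these data known. Lists of neuropeptide, hormone, yolk and cell type marker genes were planned and could not be scored, since 0 IDs matched a named gene.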

Additional observations from a re-analysis of the deposited data

How the results depend on the processing

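With all ants limma called 3 rows, and 259 rows were under an unadjusted p of 0.01. Called rows numbered 0 without a filter on low values (1149 rows at an unadjusted p under 0.05), with the library name prefix as a term (788), without batch A (565), within batch B (606) and within batch C (270), all in limma. They numbered 12 with all 33 ants in the fit and 33 with weights per ant, and 2 to 4 with other pseudocounts, a stricter filter, no batch term, other variance models, quantile or median-ratio scaling, or voom. The 259 rows became 161 without the batch term, 159 with the prefix, 558 with weights per ant, 113 without batch A, 110 within batch B and 53 within batch C. The median size of the difference became 0.179 with the prefix and 0.195 in batch B alone. The same-sign share between batches became 69.0% with quantile normalization and 54.0% when rows were ranked in batch C. The causes were not tested. Single batches, and the fit without batch A, hold fewer ants by construction.

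Leaving out single ants gave 0 to 24 called rows, 180 to 448 rows at an unadjusted p under 0.01, and a median size of 0.109 to 0.146. The count was 24 without transition worker 10, 17 without gamergate 11 and 7 without transition worker 6. It was 0 in limma without any one of gamergates 1, 2, 4, 6, 7, 8, 10 and 12 and transition workers 1, 2, 4, 5, 8 and 9, with 718 to 1069 rows at an unadjusted p under 0.05 in these fits. The same-sign share without transition worker 10 was 74.5%, and the difference in spread ran from -0.109 to -0.0213. The adjusted p for the castes over the first 5 components, computed anew in each fit, ran from 0.00184 to 0.286 (exact permutation test). Over the 39 named rows, of which 3 were called, leaving out an ant kept the side of the threshold in 828 of 897 values. It lost a call in 44 and gained one in 25. Only the 3 called rows could lose a call, and most values kept were of rows never called. Hsal_05445, Hsal_09095.2 and Hsal_11723 lost theirs in 14, 14 and 16 of the 23 fits without one ant. The other alternatives kept the side in 617 of 661, lost a call in 22 and gained one in 22. In the same order, the 3 calls held in 11 of 17, 11 of 17 and 6 of 16 of these settings. The direction changed in none of these fits. The rows were chosen by their p in the fit with all ants, so this says little about their direction.

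Ants share replicate numbers across castes. Deviations of same-numbered ants from their caste and batch correlated at -0.291 to 0.367, over 0.1 in 5 of 11 pairs. Both pairs of batch A have the same value by construction. Ants of unlike number were not compared, so whether the numbers pair the ants stays unknown. With the replicate block in place of batch 0 rows were called in limma, 806 had an unadjusted p under 0.05 and 168 one under 0.01. Count models of edgeR and DESeq2 on the recovered reads were planned and not run. Rows of few reads, such as Hsal_11723, are limited by depth.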

Other observations

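Some rows were seen in one caste at very low levels. Among the 19198 rows searched, Hsal_00139, Hsal_01121, Hsal_14678, Hsal_17783 and Hsal_17877 had reads in 6 or 7 of the 12 gamergates and were listed at 0 in all 11 workers. How many such rows would arise without a caste difference was not worked out. Each rested on 7 to 12 reads over all gamergates and on at most 3 in any one of them, and none reached the mean level needed for testing. Gamergate libraries held more reads in genes, and the part of this in these rows was not tested. No row had reads in 6 or more workers and none in gamergates.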
